A study of Mus musculus with 18 samples.

Results

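The transcripts of 8 receptors that guide cell migration (Cxcr4, Ccr1, Ccr2, Ccr6, Ccr8, Cxcr5, Cxcr6 and Gpr183) were followed across 18 RNA libraries of mouse spleen T cells, out of 55487 genes in the count table. They were chosen by name as receptors for chemokines and, for Gpr183, for an oxysterol, with earlier results of these data known. The cells had been sorted from spleen and then stimulated in culture for 72 h with antibodies to CD3 and CD28 and with IL-2. Cells labelled CD8+, CD4+ and Treg came from mice of the strain Foxp3 YFP/cre, called WT here, and of the strain Foxp3 YFP/cre Ebi3 -/-, called KO here, with 3 libraries in each of the 6 groups. Both genotypes therefore carry YFP and cre at Foxp3, whose product marks regulatory T (Treg) cells. Ebi3, the targeted gene, encodes a subunit found in IL-27 and in IL-35. The sources used here do not give the age of the mice, the deleted part of Ebi3, or which animals or cultures the replicates came from. All p-values therefore reflect the variation among these libraries alone, which may be technical.

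Chemokine receptors are seven-helix proteins that couple to inhibitory G proteins and steer a cell up a gradient of ligand. Naive lymphocytes rely on receptors that hold them in the white pulp and in lymph nodes, and after activation T cells exchange these for receptors that match inflamed tissue. GPR183, also called EBI2, works in the same way but senses an oxysterol and places B cells, dendritic cells and activated CD4 T cells at the edges of the follicle.

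Among the 8 members the largest differences belong to 4 receptors, and the 250 bases before their starts are shown because these genes were higher together in the same libraries. The sequences are from RefSeq (GRCm38.p6), which held an entry for 7 of the 8 members, and are written 5′ to 3′ on the strand of the gene. They stand at chr1:128592300-128592549 (minus strand) for Cxcr4, at chr17:8235793-8236042 (plus) for the upstream of the listed starts of Ccr6, at chr9:123806227-123806476 (plus) for Cxcr6 and at chr14:121965194-121965443 (minus) for Gpr183. Capitals mark matches, on either strand, to GGGCGG (a GC box, bound by SP1) and TGTGGT (a RUNX motif).
Cxcr4: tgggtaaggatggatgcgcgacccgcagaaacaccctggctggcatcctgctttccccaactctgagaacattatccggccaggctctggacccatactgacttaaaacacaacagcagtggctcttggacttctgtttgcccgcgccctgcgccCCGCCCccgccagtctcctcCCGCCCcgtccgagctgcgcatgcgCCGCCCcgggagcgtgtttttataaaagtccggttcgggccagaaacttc
Ccr6: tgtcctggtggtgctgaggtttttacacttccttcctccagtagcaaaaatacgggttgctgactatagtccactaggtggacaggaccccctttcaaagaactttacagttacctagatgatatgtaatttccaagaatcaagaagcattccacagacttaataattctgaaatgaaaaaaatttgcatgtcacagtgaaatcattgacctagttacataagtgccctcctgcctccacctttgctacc
Cxcr6: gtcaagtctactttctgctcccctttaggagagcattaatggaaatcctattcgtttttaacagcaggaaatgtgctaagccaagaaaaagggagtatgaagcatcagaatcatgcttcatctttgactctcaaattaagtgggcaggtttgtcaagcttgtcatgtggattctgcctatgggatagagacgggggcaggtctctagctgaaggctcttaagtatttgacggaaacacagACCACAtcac
Gpr183: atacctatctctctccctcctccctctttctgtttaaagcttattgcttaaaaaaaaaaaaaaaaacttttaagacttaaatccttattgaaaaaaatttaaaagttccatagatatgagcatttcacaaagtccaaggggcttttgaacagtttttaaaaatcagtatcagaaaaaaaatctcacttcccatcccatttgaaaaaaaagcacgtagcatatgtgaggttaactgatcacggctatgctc

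The Cxcr4 window held 3 GC boxes, 95, 75 and 50 bases before the start, and 32.74% of all 32851 mouse promoter windows of this length held at least 1. The Cxcr6 window held 1 RUNX match 10 bases before the start, a motif found in 14.05% of all windows. The Ccr6 and Gpr183 windows held neither. None of the 4 printed windows held TGANTCA (AP-1, in 6.75% of all windows) or TGTTTAC (FOXO, in 3.17%). Among these 4 windows no searched motif was thus shared, and the matches are a description of letters only.

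All 8 genes were present in the table, and 7 passed the filter on low counts, all but Ccr8. Total counts ran from 1358671 to 2255950 per library in the CD4 and CD8 groups and from 841892 to 1089003 in the Treg-labelled groups, and the members were low genes. Over all libraries Cxcr5 had 2663 counts, Gpr183 1308, Cxcr4 607, Ccr6 585, Ccr1 343, Cxcr6 243, Ccr2 235 and Ccr8 21. Levels below are counts per 1000000 (CPM) of the library size scaled by edgeR's TMM, and 3 counts in 1 library correspond to 1.31 to 3.89 CPM. Each count is a tag near the 3′ end of a transcript with molecular identifiers, so levels are compared between libraries for 1 gene and not between genes. Floors and intervals on single counts cover counting error only.

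Libraries labelled Treg held few counts of the Treg marker that the label implies. Both strains carry YFP and cre at Foxp3, and whether its 3′ tags are still counted under the gene was not tested. Foxp3 had 2 counts over the 3 WT and 1 over the 3 KO libraries of the Treg label. Cd8a stood at 24.9 to 46.7 CPM and Cd4 at 34.4 to 68.0 CPM in these 6 libraries, whereas each of these genes followed the CD8 and CD4 labels in the other 12. Counts of Treg WT replicates 1 and 2 showed no difference beyond sampling noise, nor did those of Treg KO replicates 1 and 3, and each pair is counted as 1 sample in means, giving n = 2. The same held for 4 of the 9 Treg pairs that join a WT with a KO label. Ebi3 was counted in all libraries, at 46.2 ± 12.4 CPM in CD4 WT and 23.0 ± 2.84 in CD4 KO (SD, n = 3 each) but at 28.9 ± 0.845 and 28.6 ± 4.97 in CD8 (SD, n = 3 each), so KO and Treg are used below as labels. Summed markers of B cells (18 genes such as Igkc, Ighm and Ms4a1) reached 5260 to 10849 CPM in CD8, 6209 to 12578 in CD4 and 10089 to 10782 in Treg-labelled libraries, with no marker at 0 throughout a group. Summed T cell genes (14 genes) stood at 1898 to 3193, 1457 to 2634 and 1161 to 1538 CPM in the same order.

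Transcripts of 4 receptors, Ccr6, Cxcr4, Gpr183 and Cxcr6, were higher in the Treg-labelled libraries than in CD4 and in CD8 libraries of the same genotype, and the 6 Treg-labelled libraries lay above all 12 others for each of the 4. The fold changes against CD4 in WT were 6 for Ccr6, 4.97 for Cxcr4, 3.39 for Gpr183 and 2.99 for Cxcr6. Ccr1, Ccr2 and Cxcr5 did not share this pattern, and Ccr8 had no count in any Treg-labelled library. In such bulk samples, fewer cells of a type and less RNA per cell cannot be told apart. The comparison of Treg-labelled with CD4 libraries called 4 of the 7 tested members higher in WT, where 24.8% of the 12693 genes tested were called higher, and 5 in KO, against 27.8% (edgeR quasi-likelihood test, adjusted p under 0.05). Against CD8 it called 4 members higher in WT, beside 28.8% of all genes, and 4 in KO, beside 25.1%. No member was called lower in these 4 comparisons. The median log2 fold change of the 7 members was 1.58 and 1.78 against CD4 in WT and KO and 1.02 and 1.56 against CD8, whereas the medians over all genes were 0.05, 0.10, 0.10 and 0.04. Groups that did not overlap, with the Treg-labelled libraries higher, were found for 29%, 32.9%, 33% and 30.2% of all genes in the same order, and for 4, 5, 4 and 4 members. Ccr1 was lower without overlap in Treg KO than in CD8 KO libraries.

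**Figure D1:**
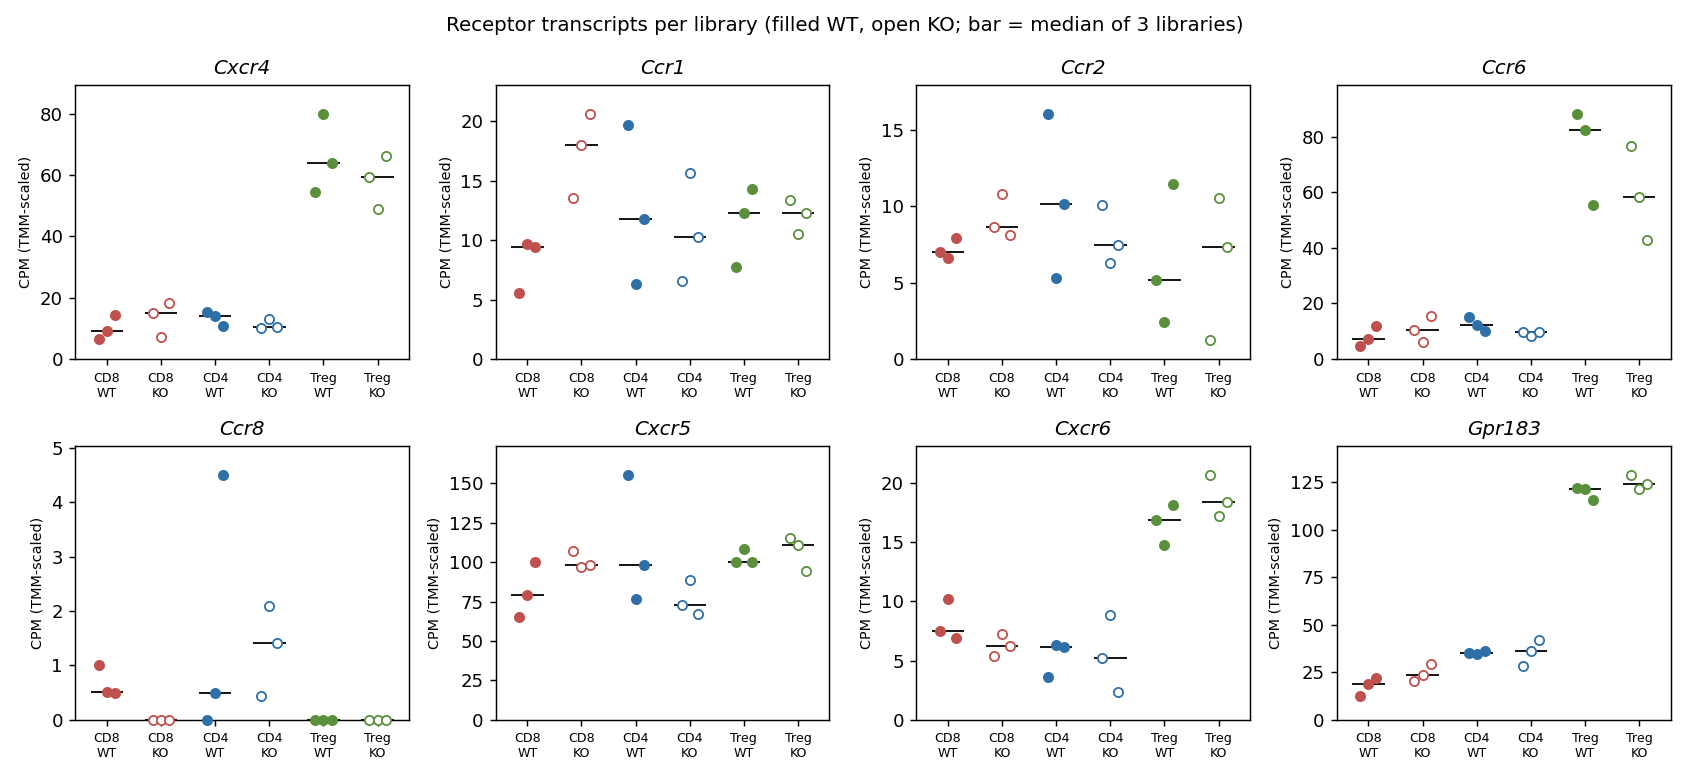
Level of each receptor transcript in the 18 libraries, in CPM on a linear axis that starts at 0 and differs between genes, by cell label and genotype. Filled points are WT, open points KO and bars the median of 3 libraries; Treg-labelled libraries reach 43.0 to 88.1 CPM for Ccr6 and stand at 0 for Ccr8.

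Ccr6 encodes the receptor for CCL20 and is known from Th17 cells, a share of Treg cells and B cells (ENSMUSG00000040899, GRCm38 chr17:8236043-8257141, plus strand). It stood at 88.1, 82.3 and 55.4 CPM in Treg WT and at 76.6, 58.4 and 43.0 in Treg KO. CD4 WT held 15.3, 12.1 and 10.1 CPM, CD4 KO 9.62, 8.36 and 9.83, CD8 WT 4.52, 7.13 and 11.9 and CD8 KO 10.3, 6.18 and 15.3. The lowest Treg-labelled library was thus well above the highest of the others, while CD4 and CD8 overlapped. On the log2 scale Treg-labelled libraries exceeded CD4 by 2.59 (SE 0.27) in WT and 2.66 (SE 0.28) in KO (edgeR, adjusted p = 1.22e-08 and 9.98e-09). Over CD8 libraries Ccr6 was higher by 3.23 (SE 0.28) in WT and 2.46 (SE 0.28) in KO (edgeR, adjusted p = 2.88e-10 and 3.96e-08).

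Cxcr4 encodes the receptor for CXCL12, which retains lymphocytes and progenitors in bone marrow and guides cells within lymphoid organs (ENSMUSG00000045382, GRCm38 chr1:128588199-128592293, minus strand). Its level was 54.4, 79.9 and 64.0 CPM in Treg WT and 59.6, 48.8 and 66.3 in Treg KO. It was 15.3, 14 and 10.7 CPM in CD4 WT, 10.1, 13.1 and 10.3 in CD4 KO, 6.52, 9.17 and 14.3 in CD8 WT and 15.2, 7.21 and 18.2 in CD8 KO. Again the Treg-labelled libraries stood apart, and the 12 other libraries formed 1 overlapping range. Treg-labelled libraries exceeded CD4 by 2.31 (SE 0.25) on the log2 scale in WT and by 2.38 (SE 0.26) in KO (edgeR, adjusted p = 1.16e-08 and 6.35e-09). They exceeded CD8 by 2.71 (SE 0.26) and 2.08 (SE 0.25) (edgeR, adjusted p = 4.63e-10 and 5.79e-08).

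Gpr183 had the smallest standard errors of the members in these comparisons (ENSMUSG00000051212, GRCm38 chr14:121952551-121965195, minus strand). It stood at 122, 122 and 116 CPM in Treg WT and at 129, 122 and 124 in Treg KO. CD4 WT held 35.0, 34.8 and 36.0 CPM, CD4 KO 28.4, 36.1 and 42.1, CD8 WT 12.5, 18.8 and 22.2 and CD8 KO 20.6, 23.7 and 29.2. The order of the levels was Treg label, CD4 and CD8, with CD4 and CD8 apart in WT and overlapping in KO. Treg-labelled libraries exceeded CD4 libraries by 1.76 (SE 0.16) on this log2 scale in WT and 1.81 (SE 0.16) in KO (edgeR, adjusted p = 5.42e-10 and 9.76e-11). Over CD8 it was 2.73 (SE 0.18) and 2.34 (SE 0.17) (edgeR, adjusted p = 1.58e-13 and 2.19e-12). Gpr183 lies within Ubac2, a gene on the opposite strand, with no exon in common.

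Cxcr6 encodes the receptor for CXCL16 and is known from tissue-resident and effector T cells and NKT cells (ENSMUSG00000048521, GRCm38 chr9:123806475-123811760, plus strand). It rested on few counts, from 5 to 20 per library. It stood at 16.8, 14.7 and 18.2 CPM in Treg WT and at 20.7, 17.2 and 18.4 in Treg KO. CD4 WT held 3.64, 6.28 and 6.19 CPM, CD4 KO 5.25, 8.88 and 2.34, CD8 WT 7.53, 10.2 and 6.92 and CD8 KO 5.42, 7.21 and 6.23. All Treg-labelled libraries exceeded all others, and CD8 lay above CD4 without overlap in WT while the 2 overlapped in KO. Treg-labelled over CD4, the log2 fold change was 1.58 (SE 0.35) in WT and 1.78 (SE 0.33) in KO (edgeR, adjusted p = 0.000459 and 4.37e-05). Over CD8 it was 1.02 (SE 0.32) in WT and 1.56 (SE 0.33) in KO (edgeR, adjusted p = 0.00854 and 0.000217), and the call in WT was lost without Treg WT replicate 3 (0.94, adjusted p = 0.0503). Cxcr6 lies within Fyco1 on the opposite strand, with no shared exon.

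These 4 differences between Treg-labelled and CD4 or CD8 libraries kept their direction and their call under every other alternative tried. These included a fit with each near-identical pair of Treg libraries of the same genotype label summed into 1 sample. Near-identical pairs that join a WT with a KO label were not summed, so the WT and KO comparisons may not be independent. The Treg-labelled libraries also had lower total counts. Of the 18 B cell markers 4 were called higher than in CD4 WT, 11 than in CD4 KO, 12 than in CD8 WT and 4 than in CD8 KO, and 0 lower. These were 22.2%, 61.1%, 66.7% and 22.2% of the list, beside 24.8%, 27.8%, 28.8% and 25.1% of all genes called higher. Against CD4 WT and CD8 KO the share was thus near that of all genes. Of 13 tested T cell genes 3, 6, 8 and 3 were called lower in the same order and 2, 3, 2 and 2 higher (edgeR, adjusted p under 0.05). Of all genes 18.2%, 20.3%, 21.4% and 19% were called lower. The part of these shifts in the 4 receptors was not tested beyond the ratios given below. Whether they differed between genotypes was tested as the difference of the KO effect between Treg-labelled and CD4 or CD8 libraries, which passed the threshold for 0 of 7 members (0% of all genes by edgeR, 0 members at an unadjusted p under 0.05, and 0 by DESeq2 and by limma-voom).

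**Figure D2:**
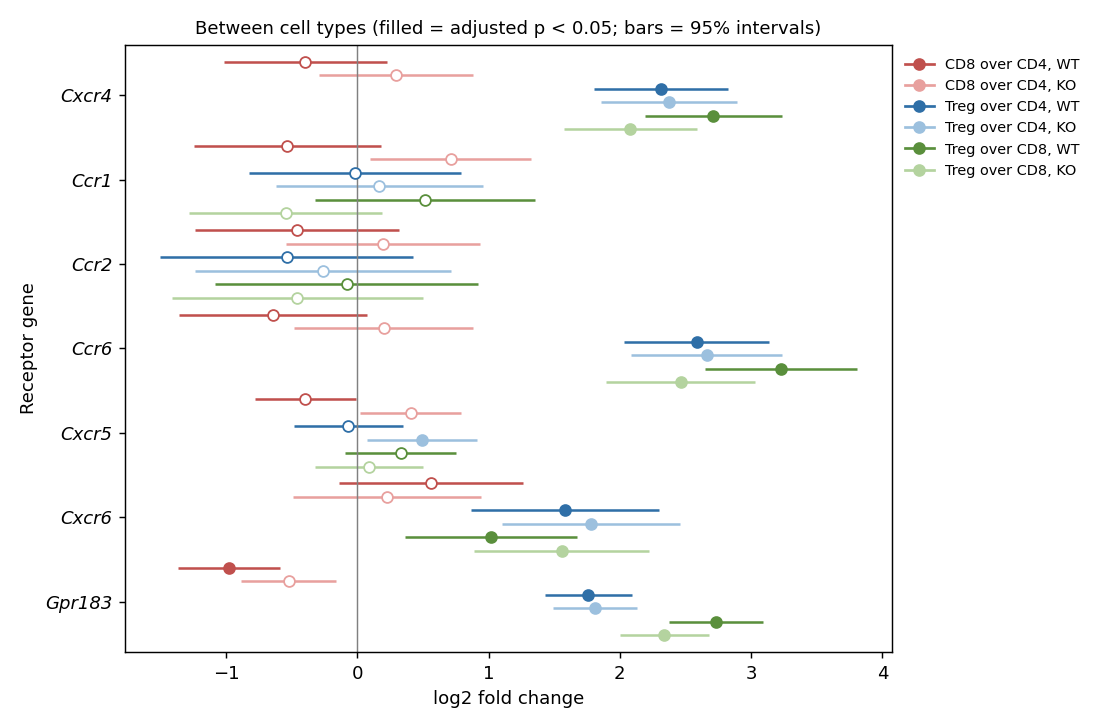
Log2 fold changes of the 7 tested receptors between cell labels within a genotype, with 95% intervals; filled points have an adjusted p under 0.05 by edgeR. Ccr6, Cxcr4, Gpr183 and Cxcr6 lie at 1.02 or more in all 4 comparisons of Treg-labelled libraries, while Ccr1 and Ccr2 have intervals that cross 0 there.

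Cxcr5 encodes the receptor for CXCL13, which draws B cells and follicular helper T cells into the follicle (ENSMUSG00000047880, GRCm38 chr9:44511787-44561877, minus strand). It was the most counted member, from 77 to 213 counts per library, and it varied least between cell labels. Its level was 99.8, 108 and 100.3 CPM in Treg WT and 115, 111 and 94.5 in Treg KO. CD4 WT held 155, 76.4 and 97.9 CPM, CD4 KO 73.0, 88.8 and 66.9, CD8 WT 65.2, 79.4 and 100.4 and CD8 KO 107, 96.8 and 98.2. CD4 WT replicate 1 was the highest library of all, and the same library had the highest summed B cell markers (12578 CPM) and the lowest summed T cell genes of the CD4 and CD8 libraries (1457 CPM). Between the Treg label and CD4 the log2 fold change was -0.07 (SE 0.20) in WT and 0.50 (SE 0.20) in KO (edgeR, adjusted p = 0.816 and 0.0472). This call in KO did not hold under DESeq2 (adjusted p = 0.0575) or with near-identical Treg libraries of the same genotype label summed (edgeR, adjusted p = 0.0767). It was also lost without CD4 KO replicate 1 or 3 or Treg KO replicate 1 or 2 (edgeR, adjusted p = 0.111, 0.147, 0.141 and 0.131). The 3′ exon of Cxcr5 overlaps that of Bcl9l on the opposite strand, and because the sources used here do not state the strand setting of the counting, tags in the overlap cannot be told apart. Bcl9l itself stood at 20.8 to 40.5 CPM of the unscaled totals in CD4, 31.3 to 49.4 in CD8 and 70.2 to 94.9 in Treg-labelled libraries.

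The ratio of Cxcr5 to the summed B cell markers was similar under the 3 cell labels. Per 1000 summed B cell marker counts there were 8.77 to 11.1 Cxcr5 counts in Treg-labelled, 10.0 to 12.3 in CD4 and 9.05 to 12.5 in CD8 libraries, so that the 18 libraries overlapped. Gpr183 on the same scale stood at 10.9 to 12.4 in Treg-labelled libraries, 2.78 to 6.29 in CD4 and 2.28 to 2.97 in CD8. Ccr6 per 1000 B cell marker counts was 3.98 to 8.73 under the Treg label, 0.994 to 1.73 in CD4 and 0.770 to 1.41 in CD8. Cxcr4 gave 4.57 to 7.59, 1.22 to 2.01 and 0.898 to 1.68 in that order. For these 3 receptors the Treg-labelled libraries remained apart from the rest on this scale. Cxcr6 gave 1.4 to 1.99, 0.290 to 1.06 and 0.574 to 1.60, and here Treg-labelled and CD8 WT libraries overlapped. Per 1000 summed counts of 22 myeloid and dendritic cell markers, Cxcr5 was 136 to 184 in Treg-labelled, 135 to 186 in CD4 and 109 to 144 in CD8 libraries. Per 1000 summed T cell gene counts Cxcr5 was 68.0 to 93.1 in Treg-labelled, 25.4 to 106.5 in CD4 and 21.0 to 51.7 in CD8 libraries. On that scale Treg-labelled and CD8 libraries did not overlap. The ratios were computed after the levels had been seen and carry no test.

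**Figure D3:**
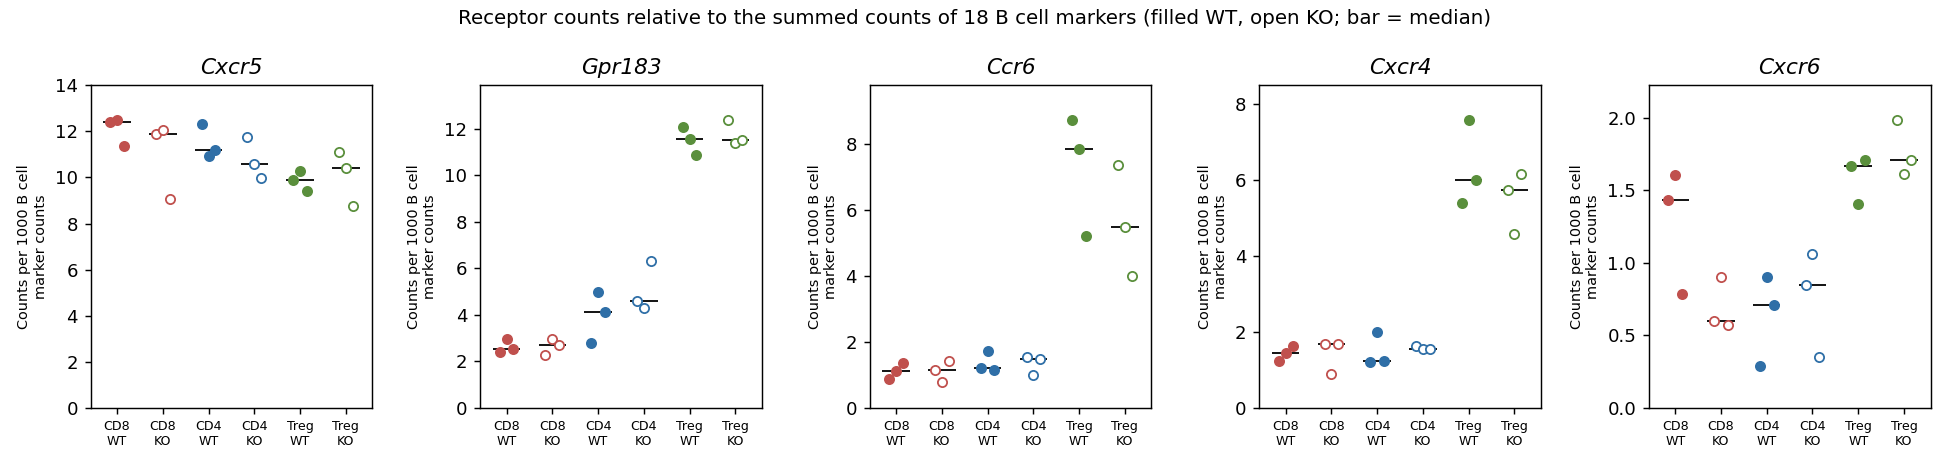
Counts of 5 receptors per 1000 summed counts of 18 B cell marker genes in each of the 18 libraries, on linear axes that start at 0; filled points are WT, open points KO, bars medians. Cxcr5 lies between 8.77 and 12.5 everywhere, whereas Gpr183 reaches 10.9 to 12.4 in Treg-labelled libraries and at most 6.29 elsewhere.

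Ccr1, a receptor for CCL3 and CCL5 best known from myeloid cells and also found on activated T cells, showed no difference between Treg-labelled and other libraries past the threshold (ENSMUSG00000025804, GRCm38 chr9:123962124-123968692, minus strand). Its level was 7.78, 12.3 and 14.3 CPM in Treg WT and 13.4, 10.5 and 12.3 in Treg KO. The CD4 libraries ranged more widely, with 19.7, 6.28 and 11.8 CPM under the WT label and 6.56, 15.7 and 10.3 under the KO label. Against CD4 the log2 fold change was -0.02 (95% interval -0.83 to 0.79) in WT and 0.17 (-0.62 to 0.95) in KO. Against CD8 it was 0.51 (-0.32 to 1.35) in WT and -0.55 (-1.28 to 0.19) in KO, and all 4 intervals crossed 0.

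Ccr2 encodes the receptor for CCL2, which brings monocytes and memory T cells to inflamed tissue (ENSMUSG00000049103, GRCm38 chr9:124101950-124113557, plus strand). It had 1 to 12 counts per Treg-labelled library, and its standard errors were the largest of the members in these comparisons. The levels were 5.18, 2.46 and 11.5 CPM in Treg WT and 1.22, 10.5 and 7.37 in Treg KO. CD4 WT held 16, 5.32 and 10.1 CPM, CD4 KO 10.1, 6.27 and 7.49, CD8 WT 7.03, 6.62 and 7.91 and CD8 KO 8.67, 10.8 and 8.14. The groups under the Treg and CD4 labels overlapped in both genotypes. The log2 fold change against CD4 was -0.54 (95% interval -1.50 to 0.43) in WT and -0.26 (-1.23 to 0.71) in KO, and against CD8 -0.08 (-1.08 to 0.92) and -0.46 (-1.42 to 0.50).

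Ccr8, the receptor for CCL1 that is known from Th2 cells and from Treg cells of tissues and tumours, was close to absent (ENSMUSG00000042262, GRCm38 chr9:120092114-120094906, plus strand). It had 0, 1 and 8 counts in CD4 WT, 1, 4 and 3 in CD4 KO, 2, 1 and 1 in CD8 WT and 0 in each CD8 KO library. No Treg-labelled library held a Ccr8 count, and 0 of 5646505 counts allows up to 0.531 CPM of the unscaled total by the limit of 3 counts, or 0.653 by the upper bound of the exact 95% interval. Summed over the CD4 libraries it reached 1.5 CPM of the unscaled total (17 counts, exact 95% interval 0.873 to 2.40), with counts in 5 of 6 libraries, and over the CD8 libraries 0.343 (4 counts, 0.0935 to 0.878). CD4 WT replicate 3 alone gave 8 of the 17 CD4 counts. The mean log2 difference of CD8 minus CD4 was -0.63 with a prior count of 2 (exact two-sided permutation within genotypes, p = 0.14, 400 arrangements).

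Loss of Ebi3, as labelled, was the comparison the study's title names. No member changed past the threshold between KO and WT libraries in CD8, CD4 or Treg-labelled cells. The comparison called 0 of 7 members in CD8, where 0.165% of all genes were called, 0 in CD4 (0% of all genes) and 0 in Treg-labelled libraries (0%). At an unadjusted p under 0.05 the counts were 2, 1 and 0 members, and DESeq2 and limma-voom also called 0 in each, although DESeq2 gave no adjusted p for 5 of the members in CD8. The median log2 fold change of the 7 members was 0.44 in CD8, -0.26 in CD4 and 0.03 under the Treg label, beside medians over all genes of 0.00, 0.00 and -0.01. KO and WT libraries did not overlap for 2 members in CD8 (Ccr1 and Ccr2), 1 in CD4 (Ccr6) and 0 under the Treg label, beside 17.4%, 9.6% and 9.4% of all genes.

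Ccr1 in CD8 had the largest of these differences. Its level was 5.52, 9.67 and 9.39 CPM in CD8 WT and 13.5, 18 and 20.6 in CD8 KO. All 3 KO libraries exceeded all 3 WT libraries, with means of 17.4 ± 3.57 and 8.20 ± 2.32 CPM (SD, n = 3 each). The log2 fold change was 1.09 (SE 0.32, 95% interval 0.44 to 1.74) and did not pass the threshold over all genes (edgeR, unadjusted p = 0.00185, adjusted p = 0.102), whereas it did in a fit with no filter on low counts (edgeR, adjusted p = 0.0128). That unfiltered fit called 447 genes, against 21 with the filter. In CD4 the log2 fold change of Ccr1 was -0.16 (SE 0.33). The difference of the effect between CD8 and CD4, 1.25 (SE 0.46), missed the threshold as well (edgeR, unadjusted p = 0.0112, adjusted p = 0.155).

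Summed markers of other cell types also had higher medians in CD8 KO than in CD8 WT libraries. Summed markers of myeloid and dendritic cells (22 genes, of which Ctss was highest) were 523, 588 and 701 CPM in CD8 WT and 777, 673 and 899 in CD8 KO, and of the 11 tested 9 had a positive fold change while 0 were called. Of the 22 markers Adgre1, Cd14, Clec9a and Xcr1 were at 0 in all CD8 WT libraries, and Csf3r and Xcr1 in all CD8 KO libraries. All other markers of the list were counted in the group concerned. Ccr1 per 1000 counts of these markers was 10.6, 16.5 and 13.4 in CD8 WT and 17.4, 26.8 and 22.9 in CD8 KO. The KO libraries thus lay above the WT libraries on this scale, narrowly at the nearest pair. Most of the marker sum came from Ctss (308 to 475 CPM in CD8 WT, 465 to 680 in CD8 KO) and Ly6c2 (116 to 151 and 84.8 to 127). Ly6c2 stood at 15.2 to 18.9 CPM in CD4 WT, and whether the sum follows myeloid cells was not tested. Tyrobp, of the same list, was 17.3 to 39.6 CPM in CD8 WT and 32.5 to 51.3 in CD8 KO. Per 1000 B cell marker counts Ccr1 was 1.05, 1.52 and 1.06 in CD8 WT and 1.5, 2.25 and 1.9 in CD8 KO, and there the genotypes overlapped. Summed B cell markers were 5260, 6346 and 8843 CPM in CD8 WT and 9037, 8028 and 10849 in CD8 KO, with a median log2 fold change of 0.44 over the 18 markers. The part of these cells in the values of Ccr1 and the other members was not tested.

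The other members in CD8 gave smaller differences. Gpr183 was 0.46 higher in KO on the log2 scale (SE 0.20), and its libraries overlapped (edgeR, unadjusted p = 0.0273, adjusted p = 0.244). Cxcr4 and Ccr6 each gave 0.44 (SE 0.30 and 0.35), Ccr2 0.35 (SE 0.37) and Cxcr5 0.30 (SE 0.18), and Cxcr6 was the only tested member with a negative value in CD8, at -0.38 (SE 0.33). In CD4 the signs were mostly the other way, with -0.50 for Cxcr5 (SE 0.19), -0.40 for Ccr6 (SE 0.33), -0.30 for Ccr2 (SE 0.37), -0.26 for Cxcr4 (SE 0.30), -0.04 for Cxcr6 (SE 0.37) and 0.01 for Gpr183 (SE 0.17). None of these passed the threshold by edgeR. Of the 18 B cell markers 17 were positive in CD8 and all 18 negative in CD4 (median -0.41), with 0 called. Of 13 tested T cell genes all 13 were negative in CD8 and 12 positive in CD4, also with 0 called. The part of these marker signs in the receptors was not tested.

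Cxcr5 in CD4 rested on 1 library. The value of -0.50 (edgeR, unadjusted p = 0.0133, adjusted p = 0.657) was -0.19 without CD4 WT replicate 1, the library at 155 CPM. Its effect differed between CD8 and CD4 by 0.80 (SE 0.26), a difference that did not pass the threshold (edgeR, unadjusted p = 0.00568, adjusted p = 0.122) but did with no filter on low counts (edgeR, adjusted p = 0.00318). That unfiltered fit called 602 genes for this difference, against 0 with the filter. The B cell markers gave a difference of the same sign, with a median of 0.86 over the 18 genes, all 18 of them positive and 0 called with the filter. Across members, the difference of the KO effect between CD8 and CD4 called 0 of 7 (0% of all genes by edgeR), 2 at an unadjusted p under 0.05, and 0 by DESeq2 and limma-voom, with 6 members lacking an adjusted p in DESeq2.

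In the Treg-labelled libraries the KO and WT values of the abundant members lay close together. Gpr183 had a log2 fold change of 0.06 (95% interval -0.24 to 0.37), Cxcr5 0.06 (-0.38 to 0.51) and Cxcr4 -0.19 (-0.65 to 0.26). Ccr6 gave -0.32 (-0.80 to 0.16) and Cxcr6 0.16 (-0.48 to 0.81). The intervals of Ccr1, 0.03 (-0.87 to 0.93), and Ccr2, -0.02 (-1.20 to 1.15), were wide. Since some Treg libraries of different genotype labels differed by less than sampling noise, these intervals describe the labels and not necessarily independent cultures.

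**Figure D4:**
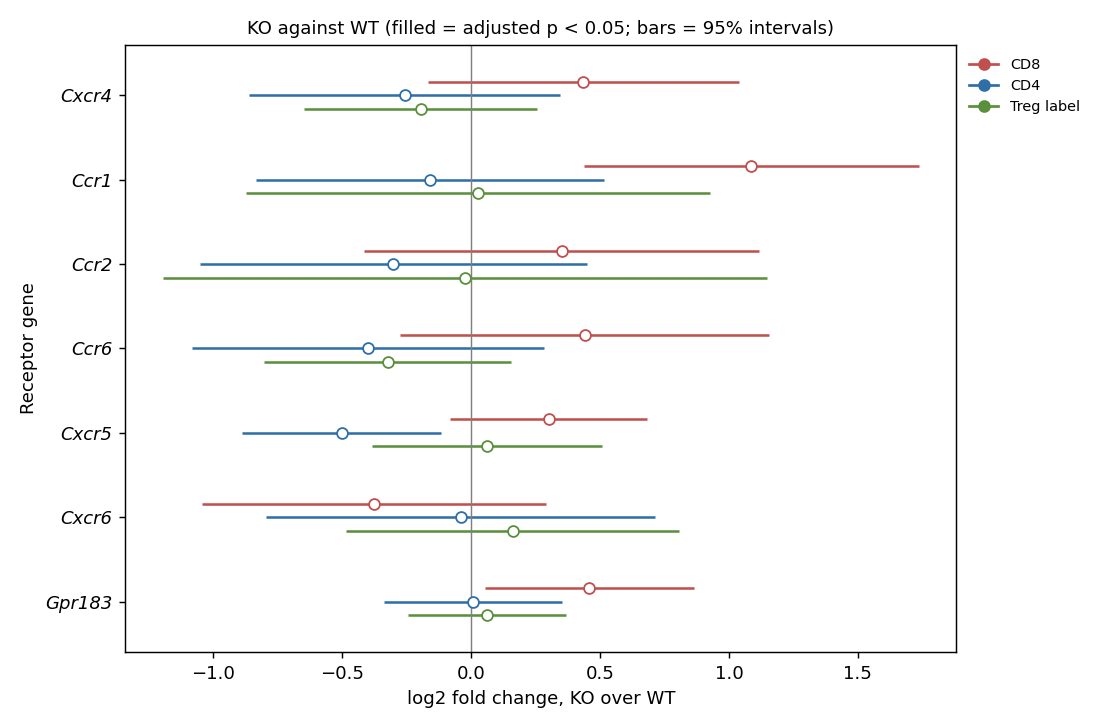
Log2 fold changes of KO over WT libraries for the 7 tested receptors in CD8, CD4 and Treg-labelled cells, with 95% intervals. All points are open because none had an adjusted p under 0.05 by edgeR; Ccr1 in CD8 stands farthest from 0, at 1.09 (0.44 to 1.74).

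Between the 2 conventional T cell labels, only Gpr183 passed the threshold among the tested members. CD8 libraries were lower than CD4 by a log2 fold change of -0.98 (SE 0.19) in WT (edgeR, adjusted p = 0.00114), with 12.5 to 22.2 CPM against 34.8 to 36.0. In KO the value was -0.52 (SE 0.18) and missed the threshold (edgeR, adjusted p = 0.102), with 20.6 to 29.2 CPM against 28.4 to 42.1. The change between genotypes was itself not past the threshold, at 0.45 (SE 0.26, edgeR adjusted p = 0.371). The comparison called 1 member in WT, beside 5.37% of all genes, and 0 in KO, beside 3.58%, where 3 members had an unadjusted p under 0.05 and DESeq2 and limma-voom called 0. Libraries did not overlap for 2 members in WT (Gpr183 and Cxcr6) and 1 in KO (Cxcr5), beside 18.9% and 19.1% of all genes. Cxcr6 had a log2 fold change of 0.56 (SE 0.35) in WT and 0.22 (SE 0.35) in KO, and Cxcr4 of -0.40 (SE 0.30) and 0.29 (SE 0.29), none past the threshold. Ccr6 gave -0.64 (SE 0.35) and 0.20 (SE 0.33), Cxcr5 -0.40 (SE 0.19) and 0.41 (SE 0.18), and Ccr1 -0.53 (SE 0.35) and 0.71 (SE 0.30), with opposite signs in the 2 genotypes for each. All 18 B cell markers were likewise negative in WT (median -0.45) and positive in KO (median 0.42), with 0 called. Their part in the receptor values was not tested.

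Transcripts of the ligands of these receptors were mostly too few to test. Of 19 genes for ligands and for enzymes that make or degrade the GPR183 ligand, 4 passed the filter (Ccl3, Ccl4, Ccl5 and Mif), 15 did not, and 4 of these had no count anywhere. Cxcl12, the ligand of CXCR4, had 7 counts over all libraries, Cxcl13, the ligand of CXCR5, 11, Cxcl16, the ligand of CXCR6, 4, Ccl20, the ligand of CCR6, 4, and Ccl1, the ligand of CCR8, 1. Ch25h, the first enzyme of the pathway to the GPR183 ligand, had 1 count and Hsd3b7, which degrades it, 63. Ccl3, a ligand of CCR1, was higher in CD8 than in CD4 by 3.04 (SE 0.47) on the log2 scale in WT and 3.25 (SE 0.38) in KO (edgeR, adjusted p = 0.000143 and 3.27e-06). It stood at 21.3 to 24.9 CPM in CD8 WT and 0.729 to 3.38 in CD4 WT, with 14 counts over the latter group. Ccl5, another ligand of CCR1, was higher in Treg-labelled than in CD8 libraries by 0.94 in WT and 0.98 in KO, and than in CD4 libraries by 0.65 and 0.75 (edgeR, adjusted p from 0.00137 to 0.0297). Mif, a cytokine that also binds CXCR4, was lower in Treg-labelled than in CD4 libraries, with log2 fold changes of -0.59 in WT and -0.86 in KO (edgeR, adjusted p = 0.00477 and 0.000145). None of the 4 tested genes was called between KO and WT.

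Other receptors of the same kind were called in both directions under the Treg label. Of 44 further chemokine and migration receptors 43 were in the table and 27 were tested. In Treg-labelled libraries 10 were called higher and 7 lower than in CD4 WT, and 12 and 5 in KO. Against CD8 the counts were 11 higher and 8 lower in WT and 11 and 6 in KO. In either direction this was 63% of the tested receptors in both comparisons with CD4, beside 43% of all genes in WT and 48% in KO, and 70.4% and 63% in those with CD8, beside 50.3% and 44.2%. Of all genes 18.2%, 20.3%, 21.4% and 19% were called lower in the 4 comparisons in this order. Ccr7, the receptor that brings naive and central memory cells to lymph nodes, was higher in Treg-labelled than in CD8 libraries by 1.61 in WT and 1.70 in KO (edgeR, adjusted p = 9.10e-08 and 5.79e-08). Ccr4, a receptor of Th2 and effector Treg cells, was lower, at 2.46 to 10.4 CPM in Treg WT against 13.1 to 38.2 in CD4 WT, a log2 fold change of -2.53 (SE 0.42; edgeR, adjusted p = 1.50e-05). P2ry14, a receptor for UDP-glucose, had no count in CD4 WT and stood at 16.8 to 20.9 CPM in Treg WT. No gene of this list was called between KO and WT.

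Genes that act downstream of the receptors were called in both directions under the Treg label. Of 37 signalling and desensitisation genes, all tested, 4 were called higher and 10 lower in Treg-labelled than in CD4 libraries in WT, and 5 and 7 in KO. Against CD8 the counts were 6 higher and 9 lower in WT and 5 and 13 in KO. In either direction 37.8% and 32.4% of the list were called against CD4 in WT and KO, beside 43% and 48% of all genes, and 40.5% and 48.6% against CD8, beside 50.3% and 44.2%. Without regard to direction these counts are thus near or below the background. By direction, lower calls outnumbered higher calls in each comparison of this list. Of all genes, in the same order, 24.8%, 27.8%, 28.8% and 25.1% were called higher and 18.2%, 20.3%, 21.4% and 19% lower. This lean of the list was not tested. Rgs1, an inhibitor of G protein signalling that dampens the response to chemokines, stood at 20.7 to 25.8 CPM in Treg WT, 86.7 to 124 in CD4 WT and 123 to 176 in CD8 WT. Its log2 fold change was -2.08 (SE 0.25) against CD4 and -2.71 (SE 0.24) against CD8 in WT (edgeR, adjusted p = 3.89e-07 and 1.98e-09). Rgs16 was lower too, with log2 fold changes of -1.37 against CD4 and -2.35 against CD8 in WT, whereas Rgs3 was higher by 1.61 and 1.39 (edgeR, adjusted p from 5.18e-06 to 0.0103). Rgs10 was lower in CD8 than in CD4, with log2 fold changes of -0.91 in WT and -1.32 in KO (edgeR, adjusted p = 0.00111 and 2.02e-06). Gpr183 was also lower in CD8 than in CD4, with a call in WT only. Unlike Gpr183, Rgs10 was lower in Treg-labelled than in CD4 libraries in KO, by a log2 fold change of -1.06 (edgeR, adjusted p = 3.46e-05). No signalling gene was called between KO and WT.

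The genes most like each receptor were found by the distance of their centred mean log2 levels over the 6 groups, among 10887 tested genes. For Cxcr5 the nearest were Cd72, an inhibitory receptor of B cells (root mean square distance 0.0245 log2), Tsc22d3 (0.0338) and H2-Ab1, a class II antigen presentation gene (0.0399), and the group means of Cxcr5 itself spanned 0.49. For Ccr1 they were Hectd3 (0.0826), Tyrobp (0.0890), an adaptor of myeloid and NK cells, and Kynu (0.0920). Cxcr4 was nearest to Etnk2 (0.0764), Clcf1 (0.102) and Ankrd29 (0.104). Genes near Ccr6 included Ankrd55 (0.133) and the pseudogene Rpl32-ps (0.140). Gpr183 was nearest to Nfia (0.0938), Palld (0.163) and Pmel (0.180), and Cxcr6 to Rasa4 (0.0799), Bcl9l (0.0960) and Aim2 (0.103). Ccr2 was nearest to the pseudogene Rpl3-ps1 (0.0492), Bcap31 (0.0549) and Fahd1 (0.0553). These are descriptions over 6 group means that share libraries, with no test.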

How the data were processed

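Per the labels' protocols, spleen T cells were sorted, stimulated in culture, and 500 ng of RNA went into 3′ tag libraries (QuantSeq FWD) with molecular identifiers. The authors deposited raw counts per gene for 18 libraries. The tools named in the submitters' processing notes are STAR 2.5.3a, cutadapt 2.10, Subread 2.0.0 with featureCounts, UMI-tools 1.0.0 and FastQC, on GRCm38 (mm10); the sources used here do not state the strand, multi-mapping or annotation settings. Symbols and positions came from a GRCm38 annotation of 55536 genes, which matched 55227 genes of the table; 0 columns were left unused. The members and gene lists were chosen with earlier results of these data known.

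Counts were filtered with edgeR 4.0.16 (R 4.3.3; filterByExpr, minimum count 10; 12693 genes kept), scaled by TMM and fitted by robust glmQLFit on 6 group means over 18 libraries (12 residual degrees of freedom). Contrasts used glmQLFTest with Benjamini-Hochberg adjustment over all genes (threshold 0.05). Intervals are 95%, from the fitted standard errors. Scripts were tested on simulated data. Alternatives were RLE factors, limma-voom (limma 3.58.1), DESeq2 1.42.0, no filter, a replicate block, fewer libraries in the fit and leaving out each library. Exact permutation of 3 against 3 cannot go below p = 0.1. Besides the members, Ebi3, Cd8a, Cd4 and Foxp3, the rule named up to 5 called genes of largest fold change per list and comparison and the 3 nearest genes per member; the text gives some of these, and some others are not reported here. Ligands with few counts were named outside this rule, after their values were seen.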

Additional observations from a re-analysis of the deposited data

How the results depend on the processing

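Of 235 alternative values of called members, 226 kept direction and call and 9 lost the call (8 for Cxcr5, Treg label against CD4 in KO, and 1 for Cxcr6). With no filter on low counts 1 member was called for KO in CD8 (Ccr1) and 1 for the difference of the KO effect between CD8 and CD4 (Cxcr5). Over all genes that setting called 447 for KO in CD8, against 21, and 602 for the difference, against 0. It moved the median of tested genes in Treg comparisons by -0.16 to -0.17. Leaving out 1 library gave 1 to 2 members for CD8 against CD4 in WT (Cxcr5 added without CD4 WT replicate 2), 0 to 1 in KO (Gpr183 added without CD4 KO replicate 1), 4 to 5 for the Treg label against CD4 in KO and 3 to 5 against CD8 in WT. Replicate numbers did not pair libraries (correlations of same-numbered deviations from -0.34 to 0.31), and the replicate block left 4 members called for the Treg label against CD4 in KO, against 5, and changed no other count; with it Ccr2, KO in the Treg label, was 0.0046.

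All 28 values that turned sign belonged to differences that were not called, and the causes were not tested. Limma-voom gave -0.015 for Gpr183, KO in CD4, and, for the Treg label against CD4 in WT, 0.0076 for Cxcr5 and 0.14 for Ccr1; no filter gave -0.078 for Cxcr5, Treg label against CD8 in KO. Leaving out libraries gave, for KO in CD4, -0.14 to 0.15 (Gpr183), -0.52 to 0.32 (Cxcr6), -0.53 to 0.26 (Ccr1) and -0.67 to 0.083 (Ccr2), and for KO in the Treg label -0.17 to 0.24 (Ccr1) and -0.66 to 0.81 (Ccr2). It gave, for CD8 against CD4 in KO, -0.14 to 0.70 (Cxcr6) and -0.18 to 0.47 (Ccr6). For the Treg label against CD4 it gave -0.29 to 0.22 (Cxcr5, WT), -0.39 to 0.38 (Ccr1, WT), -0.11 to 0.51 (Ccr1, KO) and -0.90 to 0.18 (Ccr2, KO), and against CD8 in WT -0.91 to 0.28 (Ccr2). At these depths Ccr1, Ccr2 and Ccr8 allow no statement on small changes.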
